A study of Mus musculus with 5 samples.

Results

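Regions that cross the 3′ end of a gene were described in RNA immunoprecipitation sequencing of mouse hippocampus, a study of RNA held by CYFIP1. A region was taken as a gene-end region when the deposited annotation placed it over the end of at least 1 gene and over no gene start or whole gene. This gave 396 of 4191 regions (9.45%) for HA over IgG in mouse 1 and 226 of 1920 (11.8%) in mouse 2. Over wild-type HA it gave 576 of 5355 (10.8%) and 579 of 5362 (10.8%). Counted once over the 4 lists, 1275 of 11760 regions crossed the ends of 1180 genes.

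The 5 libraries came from hippocampi of C57BL/6 mice and fall into 3 groups. Anti-HA was used on 2 knock-in mice, control IgG on tissue with the same 2 mouse numbers, and anti-HA on 1 wild-type mouse. The labels give neither the knocked-in allele nor the age of the animals, and number the mice without saying whether tissue was pooled. The spread between these libraries may therefore be technical. The p-values rest on that spread and on spread borrowed across the regions of a fit. The comparison with IgG addresses which RNA the HA antibody brought down beyond nonspecific capture, and the comparison with wild type addresses capture by that antibody without the knock-in. Wild type is 1 library that serves both mice, so the lists over wild type share their control and hold no spread of it.

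CYFIP1 binds FMRP, the protein lost in fragile X syndrome, which holds messenger RNA in neurons. It is also a subunit of the WAVE complex, which starts the branching of actin filaments. The end of a messenger RNA carries the 3′ untranslated region, where regulatory proteins bind and where cleavage and polyadenylation follow a short signal, most often AATAAA and less often ATTAAA. Reads past an annotated end can come from longer transcripts, from RNA not yet cleaved, or from a neighbouring gene. The regions carry no strand, so where genes meet tail to tail the reads cannot be assigned to either.

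The ends that the results turn on are shown with the last 30 bases of the annotated transcript end on GRCm38 (GENCODE M21), written 5′ to 3′ on the gene's strand, with the polyadenylation signal in capitals where the letters AATAAA or ATTAAA were found. The first pair overlaps tail to tail, and their letters are the reverse complement of each other over 30 bases. The spectrin ends and that of Nhs had high HA over IgG ratios, and the last 3 had low ratios over wild type. The positions are chr4:129219578-129219607 for C77080 (minus strand) and Yars (plus strand), chr2:30031422-30031451 for Sptan1 (plus), chr11:30099395-30099424 for Sptbn1 (minus), chrX:161833296-161833325 for Nhs (minus), chr4:123349633-123349662 for Macf1 (minus), chr15:89464439-89464468 for Mapk8ip2 (plus) and chr15:77760587-77760616 for Myh9 (minus).
C77080: aaaaggtattaATTAAAtgattgaaacttg
Yars: caagtttcaatcatttaattaatacctttt
Sptan1: gaaaAATAAAggactcatttcccctctaaa
Sptbn1: atgctatgtcATTAAAtgcttttaaatcta
Nhs: agactgcaAATAAAcgtgactgcaattaaa
Macf1: ccgctaaggtataaaaatgttgtagtactt
Mapk8ip2: tgctttgAATAAAactaacctggcttacaa
Myh9: agcgtcacAATAAAgagtaccatgtcctac

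In a window of the last 40 bases of the transcript strand, AATAAA or, failing that, ATTAAA was present in 219 of 308 gene-end genes (71.1%) for HA over IgG in mouse 1 and in 84 of 118 (71.2%) in mouse 2. Over wild type the share was 70.8% and 73.6%. Over all 21947 protein-coding genes of that annotation the share was 69.6%, of which AATAAA made up 57.1% of genes and ATTAAA 12.5%. The lists over IgG held 421 and 241 protein-coding gene ends, so these shares cover only a part of the gene ends. The gene-end genes counted carried the signal about as often as any gene, and letters missing from this window say nothing of the signal used.

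Also shown, because its region carried 406 HA reads in each mouse, is the microRNA gene Mir6997, which lies inside Sptan1. Its mature sequences, from RefSeq on GRCm38.p6 at chr2:29995955-29995976 and chr2:29995996-29996018 on the plus strand, are given with the seed, bases 2 to 8, in capitals.
mmu-miR-6997-5p: uAACAGGCuggagaggugcaga
mmu-miR-6997-3p: uCAAACCUuacccuccuguuucc
The region runs from the 3p arm for about 1 kb into Sptan1, so its reads cannot be told apart from those of the Sptan1 transcript.

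Gene-end regions were wide. Their median width was 4715 and 4845 bp over IgG in mice 1 and 2, and 5130 and 4800 bp over wild type. Regions lying inside a gene had medians of 1250 and 1600 bp, then 1600 and 1500 bp. Wide regions hold more reads, and the median gene-end region had 12 and 13 HA reads over IgG and 13 in both mice over wild type, against 4, 5, 4 and 4 for regions inside genes. Per kb the order turned round. The median was 2.80, 2.66, 2.50 and 3.0 HA reads per kb at gene ends and 3.47, 3.0, 3.25 and 3.45 inside genes, in the same order of lists.

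**Figure D1:**
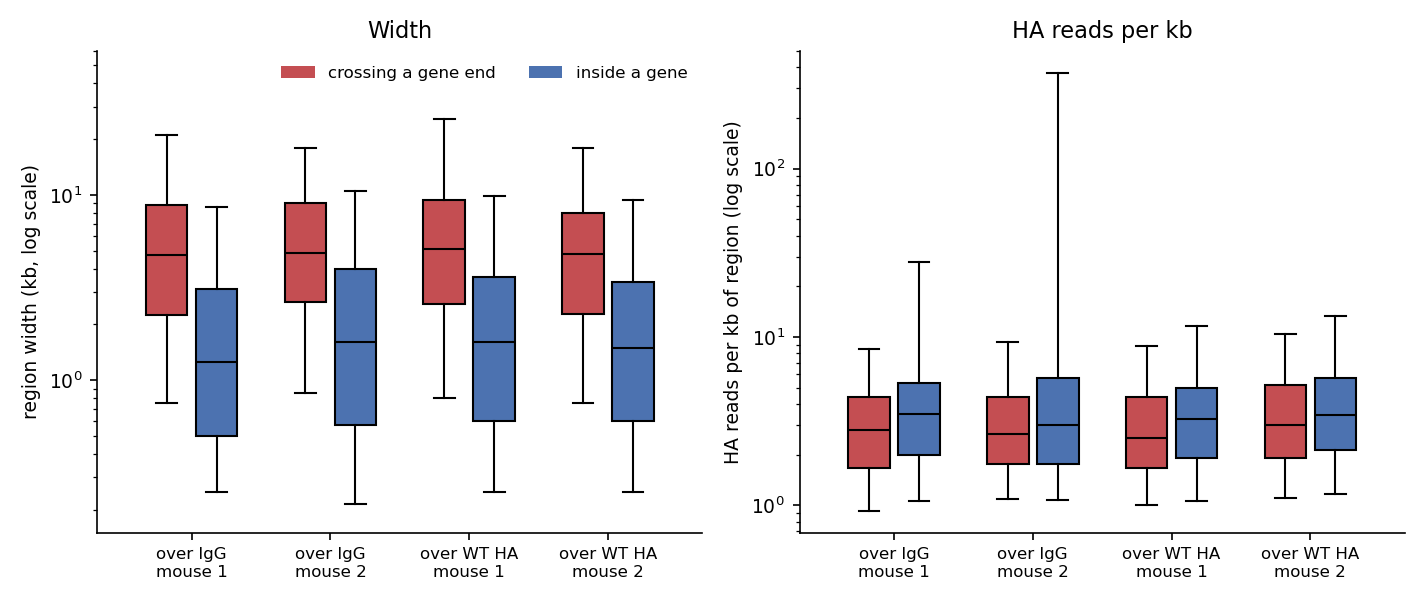
Width (left, kb, log scale) and HA reads per kb (right, log scale) of regions crossing a gene end (red) and inside a gene (blue) in each of the 4 lists; WT is wild type, boxes span the quartiles with the median as a line, and whiskers the 5th to 95th percentiles. Gene-end boxes sit higher in width in each list, with medians of 4715 to 5130 bp, and their medians of reads per kb over all widths sit lower.

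Gene-end regions passed a read minimum more often than the rest. At least 20 reads (HA plus control) were held by 184 (46.5%) and 138 (61.1%) over IgG, while over wild type the numbers were 295 (51.2%) and 296 (51.1%). Of all regions in those lists, 20.5%, 39.4%, 25.1% and 25.1% did. A control with no read at all was found for 13.6%, 4.87%, 9.90% and 10.9% of gene-end regions, against 34.7%, 15.2%, 28.3% and 29.1% of all regions. Gene ends made up 23.2% and 23.6% of the regions over 5 kb in the lists over IgG but 2.28% and 2.77% of those up to 1 kb, and the lists over wild type had 22.4% and 24.1%, then 2.4% and 2.77%. Over 5 kb, 141 of 188, 95 of 109, 224 of 292 and 212 of 275 gene-end regions held 20 reads. Inside genes 242 of 438, 177 of 237, 357 of 611 and 359 of 579 did. Up to 1 kb the order was the other way, over IgG with 1 of 37 and 3 of 19 against 134 of 1385 and 166 of 560. The part of width in this was not tested.

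The regions reached far beyond the annotated ends. The distance from the gene end to the downstream edge of the region had a median of 1484 and 1586 bp over IgG and of 1362 and 1330 bp over wild type. It exceeded 1 kb for 57.3%, 57.7%, 55.4% and 53.8% of gene ends and was at most 200 bp for 24.4%, 27.5%, 23.3% and 27.1%. Edges fall on bins of 200 to 285 bp that the authors' regions follow, so a reach of up to 200 bp is within about 1 bin of the end itself. The farthest reach was 40494 bp past Cd99l2 and 20889 bp past Mpp5 over IgG, and 40327 bp past Pqlc3 and 22049 bp past Malsu1 over wild type. At Cd99l2, a cell adhesion gene, HA and IgG had 36 reads each over that region.

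**Figure D2:**
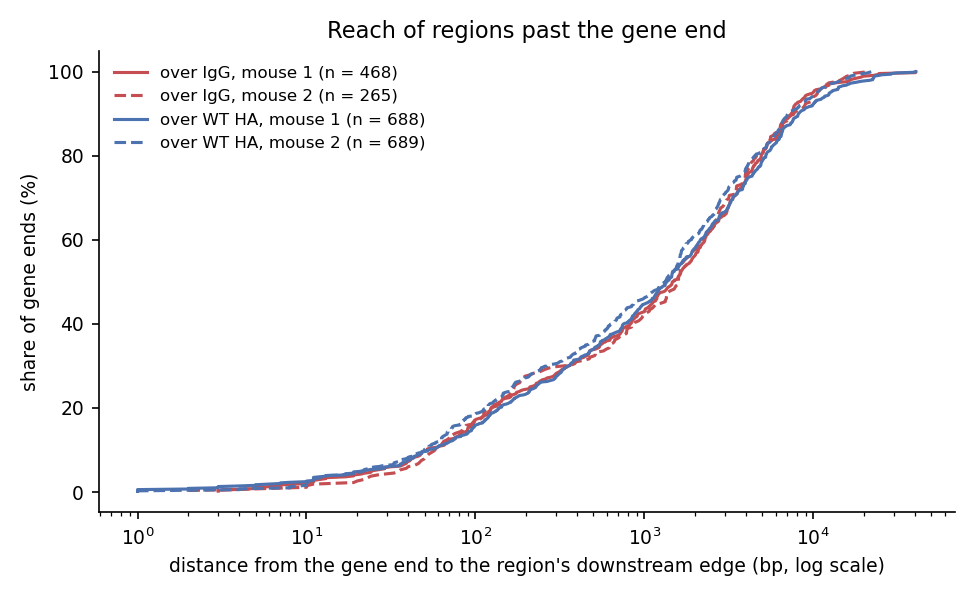
Share of gene ends (%, vertical axis) whose region reaches no farther than a given distance past the end (bp, log scale) for the 4 lists; WT is wild type, solid lines are mouse 1 and dashed lines mouse 2. The 4 curves run close together and cross 50% between 1330 and 1586 bp.

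A long reach went with a neighbouring gene. Among ends with a reach over 5 kb, the region also crossed the end of another gene or lay inside one in 80.2% and 76.9% over IgG and in 84.9% and 81.7% over wild type. Among ends with a reach of at most 200 bp that share was 18.4%, 11%, 18.8% and 13.9%. In all, 70, 37, 110 and 104 gene-end regions crossed exactly 2 ends, and 69, 35, 107 and 100 of these were genes on opposite strands meeting tail to tail. The annotated ends overlapped in 46.4%, 45.7%, 44.9% and 52.0% of those pairs, and elsewhere the median gap was 1363, 1047, 1363 and 860 bp. Regions with 2 ends were wider than those with 1 (medians 8858 against 4080 bp over IgG in mouse 1, and 9000 against 4275 bp in mouse 2) and had fewer HA reads per kb (2.11 against 3.09, and 2.17 against 2.80).

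Most of these genes code for proteins, namely 90.7%, 92.3%, 91.9% and 89.9% of the gene ends found in GENCODE M21. On protein-coding genes, 3′ untranslated sequence was touched at 99.0%, 100%, 99.2% and 98.9% of ends and coding sequence at 81.2%, 87.1%, 83.1% and 84.3%. Of the bases inside the genes, 33.5%, 27.7%, 26.8% and 33.8% were 3′ untranslated, 11.5%, 12.3%, 11.9% and 11.8% coding, and 50.5%, 54.0%, 55.7% and 48.9% intron. At 31.8%, 21.2%, 28% and 27% of these ends the region held no intron of the gene. The ends in the deposited annotation matched those of M21 for 75%, 51.7%, 69.0% and 74.9% of genes, so distances follow the deposited ends.

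Folds given from here on are ratios of HA to control reads after adding 0.5 to both, divided by the median ratio of all regions of the same list with at least 20 reads. For IgG that median ratio was 2.81 in mouse 1 and 0.948 in mouse 2, for wild type 1.41 and 1.72, and library totals are not in the lists. Dividing by the ratio of all reads of a list (the pooled ratio) moved every log2 value by -0.46 (IgG, mouse 1), -1.08 (IgG, mouse 2), 0.72 (wild type, mouse 1) and 0.90 (wild type, mouse 2), so a region near 1-fold has no fixed side. The reads are PCR copies without molecular identifiers, and intervals of a single region's fold cover counting error only. The interval of a median covers the spread among regions of 1 library pair, taken as independent. It holds no spread between libraries.

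Against IgG, gene-end regions sat at or below the typical region, and strong ratios were rare among them. The median fold was 0.804 in mouse 1 (95% interval of the median 0.763 to 0.905 over 184 regions) and 0.983 in mouse 2 (0.859 to 1.12 over 138). Over wild type it was 1.05 (0.982 to 1.11 over 295) and 1.03 (0.995 to 1.07 over 296). A fold of 2 or more was reached by 14 of 184 (7.61%) and 14 of 138 (10.1%) over IgG, where 23.5% and 28.7% of all regions reached it. Over wild type 20 of 295 (6.78%) and 22 of 296 (7.43%) did, against 8.12% and 10.2% of all regions. A fold of 0.5 or less was found for 39 (21.2%) and 14 (10.1%) over IgG, against 15.9% and 13%, and for 15 (5.08%) and 15 (5.07%) over wild type, against 9.91% and 11.1%. Regions of a list share 1 library pair, so no test was made between kinds of region, and the values of both mice stand side by side.

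The gap to regions inside genes lay at narrow regions. Inside genes the median fold was 1.21 and 1.23 over IgG. Regions up to 1 kb inside genes had medians of 9.62 and 13.0, and only 1 and 3 gene-end regions of that width had 20 reads. Between 1 and 5 kb the medians were 1.15 and 1.14 at gene ends and 1.13 and 0.977 inside genes. Over 5 kb they were 0.766 and 0.948 at gene ends and 0.831 and 0.786 inside genes. Gene ends were thus the higher in both mice between 1 and 5 kb, narrowly in mouse 1, and the mice disagreed on the order over 5 kb.

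**Figure D3:**
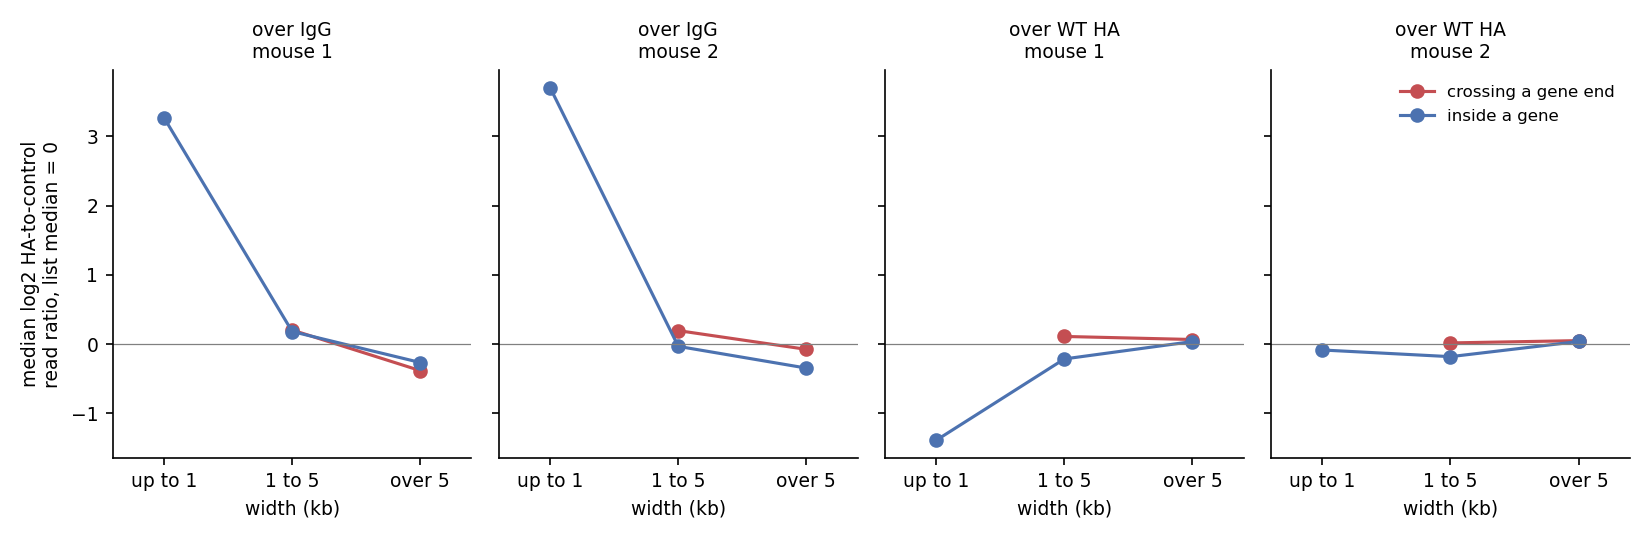
Median log2 HA-to-control read ratio (vertical axis, list median set to 0) by region width (kb) for regions crossing a gene end (red) and inside a gene (blue) in each list; WT is wild type, and only points with at least 20 regions are drawn. The lists over IgG have high values for regions inside genes up to 1 kb, a width at which gene ends have too few regions to draw, and the colours lie close at the other widths.

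Over IgG, gene ends with the longest reach had the lowest ratios, with no steady trend below it. In mouse 1 the median fold was 0.783 for a reach of at most 200 bp, 1.01 up to 1 kb, 0.812 from 1 to 5 kb and 0.653 over 5 kb. In mouse 2 it was 1.08, 0.977, 0.983 and 0.741. Over wild type the medians were 1.09 and 1.04 at the long reach and 1.05 and 1.03 at the short reach. Regions with 2 ends had 0.635 and 0.741 over IgG against 0.883 and 1.03 for regions with 1 end, and 1.08 and 1.13 against 1.05 and 1.02 over wild type.

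Chromosomes differed between lists. In mouse 2 over IgG, 106 gene-end regions lay on chromosome 12 and 108 on chromosome 15, and 12 lay elsewhere. On those 12 the median fold of the 7 with at least 20 reads was 12.4, near the 11.4 of all regions on the same chromosomes, while on chromosomes 12 and 15 it was 0.977 against 0.788. In mouse 1 over IgG, on the 16 chromosomes with under 500 regions, the 30 gene-end regions with at least 20 reads had a median of 0.645 where all regions had 5.29. Of these 30, 24 lay on chromosome X, where the median log2 was -0.94 at gene ends and -0.35 inside genes. On the 5 chromosomes with more regions the gene ends had 0.883 and all regions 0.896. The part of the chromosome in the results was not tested.

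Fewer genes had a gene-end region in both mice than a region inside in both. Over IgG, 97 genes had a gene-end region in both mice, which is 20.7% of 468 in mouse 1 and 36.6% of 265 in mouse 2. Genes with a region inside were shared at 25.2% and 68.1% (447 genes). On chromosomes 12 and 15, where both lists hold over 500 regions each, 91 genes were shared at gene ends (53.2% and 36.1%) and 396 inside genes (77.0% and 68.4%). Over wild type 272 genes were shared at gene ends (39.5% and 39.5%) and 1399 inside genes (68.2% and 70.1%), with the same control library in both lists.

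By position the order depended on the measure, and widths were not matched. Gene-end regions overlapped a gene-end region of the other mouse by at least 1 bp in 19.7% and 34.5% over IgG. Regions inside genes did so among themselves in 17.4% and 41.2%. Over wild type these shares were 38.9% and 38.9% at gene ends and 41.8% and 41.5% inside genes. A gene-end region was overlapped by a region of any kind in the other mouse for 127 of 396 (32.1%) and 137 of 226 (60.6%) over IgG, and for 64.6% and 74.3% over wild type. Over all regions that share was 22.1% and 50.6%, then 52.3% and 53.3%. When both regions had to cover at least 50% of each other, 57 gene-end regions matched over IgG (14.4% and 25.2%), against 9.46% and 22.3% of regions inside genes and 12.4% and 27.0% of all regions. Over wild type 165 matched (28.6% and 28.5%), against 22.3% and 21.9% inside genes and 28.6% and 28.6% of all. For the 97 genes shared over IgG, widths were within 1.5-fold in 64 (66.0%) and the reach past the end was within 500 bp in 46 (47.4%). For the 272 over wild type these were 165 (60.7%) and 126 (46.3%). In all 4 lists 88 genes had a gene-end region, and those with many reads included C77080, Yars, Macf1, Eml5, Zc3h14, Kidins220, Nrcam and Cbx5.

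HA was tested against IgG with limma on regions with identical coordinates in both mice, which gave 92 regions, 6 of them at gene ends. Of these, 3 were higher in HA and 0 lower at an adjusted p under 0.05. Over all 92 regions, 82.6% were higher and 0% lower, so most identical regions were high and the count at gene ends is not particular to them. Where the libraries were scaled on the 92 regions themselves by a trimmed mean, 16 were higher and 18 lower, with 1 and 4 at gene ends. That scale moved the median log2 of the 92 regions from 3.10 to 0.01, and Sptbn1 and Macf1 then stood at -0.22 and -2.05.

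Those described here are a beta spectrin and a linker of actin and microtubules. Sptbn1, the beta II spectrin of axons, held 399 and 432 HA reads and 24 and 49 IgG reads in mice 1 and 2 at chr11:30099356-30100860 (log2 2.87, SE 0.28, limma adjusted p = 0.000134). Both HA libraries lay above both IgG libraries by a wide margin. Identical regions inside Sptbn1 had log2 values of 2.63 to 3.87, so a high value is not particular to its end. Macf1, which links microtubules to actin, held 79 and 93 HA reads and 15 and 42 IgG reads at chr4:123349501-123352000 (log2 1.04, SE 0.24, limma adjusted p = 0.00579). Without the second HA library Macf1 did not pass (adjusted p = 0.0689), nor with the pooled ratio (log2 0.27, adjusted p = 0.387). The other 3 did not pass. Enpp2, which makes lysophosphatidic acid, held 7 and 8 HA reads and 2 and 10 IgG reads, Zfp251, a zinc finger gene, 12 and 26 and then 7 and 18, and Poldip3 15 and 14 and then 5 and 13.

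To reach more gene ends, regions of the mice that covered at least 50% of each other and held 20 reads in each mouse were taken as 1 region, and the 2 log2 ratios were tested against the list median with limma. This alternative was chosen after the data had been seen. Each test holds 2 ratios, and limma adds spread borrowed from all regions of the fit. The very small p-values over IgG rest largely on that borrowed spread. Over IgG it tested 273 regions, of which 44.7% were higher and 14.7% lower. Of 35 gene-end regions, 7 were higher and 6 lower, and the median log2 was -0.05 at gene ends and 0.51 over all regions. With the pooled ratio 4 gene-end regions were higher and 14 lower, where 41% and 34.8% of all regions were.

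The chromosomes with few regions carried most of the high values. Outside chromosomes 12 and 15, all 5 gene-end regions tested were higher, as were 116 of 124 regions of any kind (93.5%). On chromosomes 12 and 15, 2 of 30 gene-end regions were higher and 6 lower, against 4.03% higher and 26.8% lower of 149 regions of any kind.

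The strongest gene end over IgG was the meeting point of C77080 and Yars. C77080 is the gene of a protein of the NHS family, which acts with the WAVE complex on actin, and Yars encodes the enzyme that charges transfer RNA with tyrosine. The shared region, 8 kb in mouse 1 and 7.50 kb in mouse 2, held 335 and 485 HA reads, 7 and 21 IgG reads, and 13 wild-type reads in each list. HA lay far above all controls in both mice. It was 19.5-fold over IgG (log2 4.28, SE 0.38, limma adjusted p = 8.89e-23, n = 2) and 19.2-fold over wild type (log2 4.27, SE 0.11, limma adjusted p = 0.000302, n = 2). The region starts 1327 and 1077 bp past the end of C77080 and covers 6643 and 6393 bp past that of Yars, so most of it lies on the side of C77080, and the reads carry no strand.

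The end of the alpha spectrin gene was also high. Sptan1, alpha II spectrin, had a gene-end region in mouse 1 only, with 634 reads in HA and 20 in IgG over 1.85 kb (11-fold, interval 7.25 to 18.6, no replicate). The region at Mir6997 inside the same gene held 406 reads in each HA library and 9 and 34 in the IgG libraries, 13.8-fold (log2 3.78, SE 0.39, limma adjusted p = 3.52e-18, n = 2). Sptan1, Sptbn1 and Mir6997 had no gene-end region over wild type, where the lists hold no region on chromosomes 2 and 11, so no wild-type value stands beside them.

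Moderately high over IgG were Akap6, Macf1 and Cbx5. Akap6, an anchor of protein kinase A at the nuclear envelope, held 34 and 39 HA and 7 and 14 IgG reads (2.17-fold, limma adjusted p = 0.0121). Cbx5, the gene of heterochromatin protein HP1 alpha, held 78 and 98 HA and 14 and 51 IgG reads (1.97-fold, limma adjusted p = 0.0149). With the pooled ratio the log2 values of Akap6, Macf1 and Cbx5 were 0.34, 0.27 and 0.21, and none of the 3 passed.

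The 6 gene ends that were lower over IgG all lay on chromosome 12 and were wide. They were 6 of 21 gene ends tested on that chromosome, where 36 of 93 regions of any kind were lower. The clustering there is therefore not particular to gene ends. The end shared by Eml5, a microtubule-associated protein gene, and Zc3h14, the gene of a protein that binds poly(A) tails, held 60 and 59 HA and 68 and 168 IgG reads over 23.5 and 27.2 kb (0.342-fold, log2 -1.55, SE 0.39, limma adjusted p = 0.000208). Nrcam, a neuronal cell adhesion gene, held 89 and 106 HA and 100 and 222 IgG reads over 43.0 and 46.0 kb (0.40-fold, limma adjusted p = 0.00385). Kidins220, a scaffold of neurotrophin receptors, held 87 and 71 HA and 70 and 131 IgG reads (0.504-fold, limma adjusted p = 0.0219). IgG reads exceeded HA reads in both mice for the first 2 of these, and in mouse 2 for Kidins220. The other 3 were the pair Cinp and Zfp839 (0.377-fold), the pair Atp6v1d and Mpp5, a proton pump subunit and a polarity scaffold (0.521-fold), and Slc24a4, a sodium and calcium exchanger (0.563-fold). The pooled ratio lowers every value over IgG, so it could not turn these 6 and is no check on them.

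**Figure D4:**
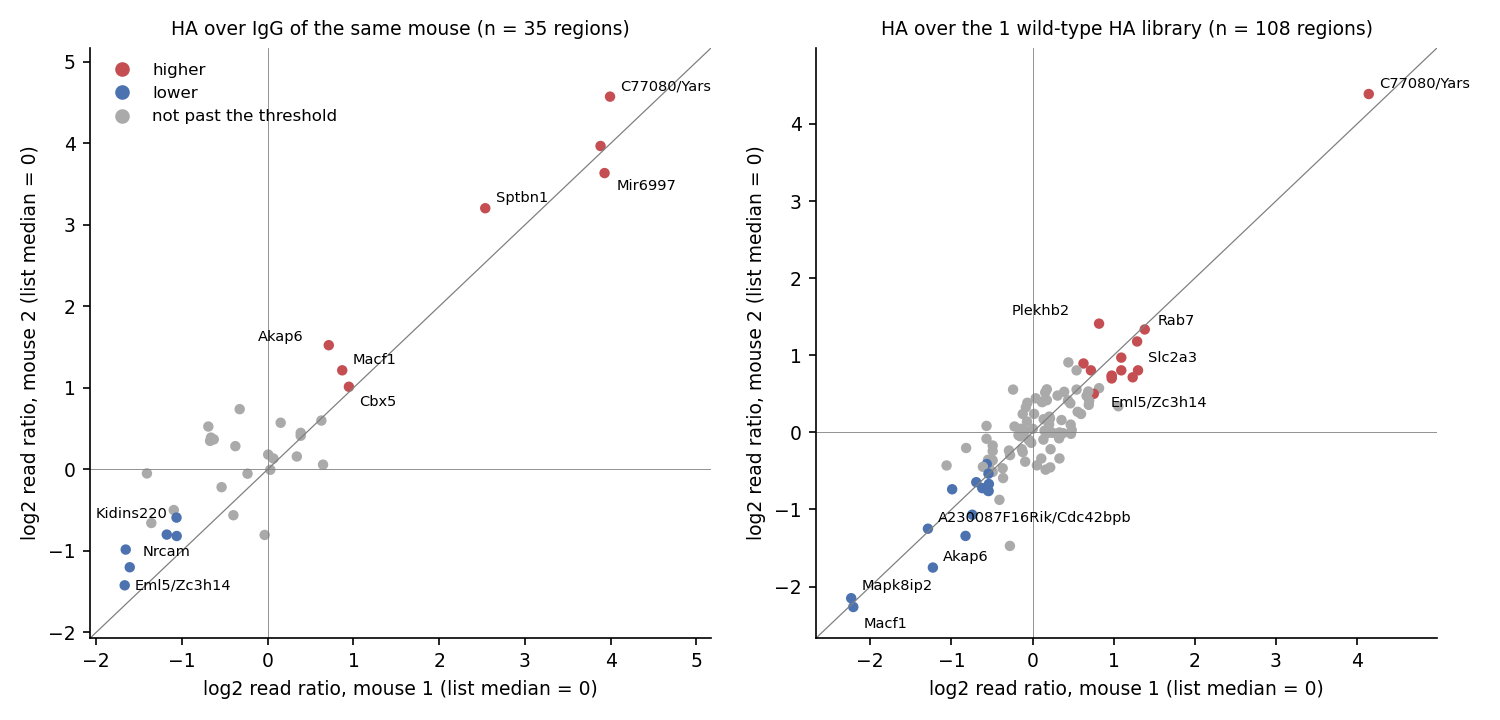
Log2 HA-to-control read ratio of gene-end regions matched between the mice, mouse 1 on the horizontal and mouse 2 on the vertical axis (list median set to 0, diagonal for equal values), over IgG (left, 35 regions) and over wild type (right, 108 regions). Red and blue points were higher and lower by limma at an adjusted p under 0.05, and the C77080 and Yars end stands at about 4 on all axes; over wild type with the pooled ratio, 85 points were higher and 4 lower.

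Over wild type the identical regions gave 94 tests, 8 of them at gene ends, with 1 residual degree of freedom. None was higher and 1 was lower at gene ends, against 8.51% higher and 21.3% lower of all regions, and at an unadjusted p under 0.05 these were 0 and 2. The lower one was Macf1, with 79 and 93 HA reads against 261 wild-type reads over the same bases (log2 -2.24, SE 0.14, limma adjusted p = 0.00151). With no minimum of reads it did not pass (adjusted p = 0.0783), and with the pooled ratio it did (log2 -1.43, adjusted p = 0.00672). Macf1 was thus above IgG and below the wild-type library in both mice. Identical regions inside Macf1 had log2 values of 1.05 to 2.64 over IgG and of -2.93 to -1.74 over wild type. Neither direction is therefore particular to the end of the gene.

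Matched regions gave 666 tests over wild type, 11.1% higher and 17.7% lower, and 108 at gene ends, 14 higher and 14 lower. With the pooled ratio 85 gene ends were higher and 4 lower, and 71.5% and 8.71% of all regions, so most directions here depend on the scale. Both ratios share the reads of 1 control library, which makes these p-values too small. The 108 regions lay on chromosomes 1, 4, 6, 12 and 15. Of the 14 that were higher, 9 lay on chromosome 6, which held 28 of the 108 gene ends tested. Of regions of any kind on that chromosome 19 of 132 were higher.

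Apart from C77080 and Yars, the highest gene ends over wild type were about 2-fold and held few reads. Rab7, a GTPase of late endosomes, held 16 and 19 HA reads and 4 wild-type reads in each list (2.57-fold, limma adjusted p = 0.0085). Slc2a3, the glucose transporter of neurons, held 39 and 52 HA and 11 and 13 wild-type reads (2.35-fold, limma adjusted p = 0.0123). Plekhb2, a protein of recycling endosomes, held 33 and 52 HA and 13 and 11 wild-type reads (2.17-fold, limma adjusted p = 0.033). Over IgG, Rab7 and Plekhb2 had a gene-end region in mouse 1 only, at 0.783 and 0.954-fold. Eml5 and Zc3h14, low over IgG, were 1.54-fold over wild type with 25 and 24 wild-type reads (limma adjusted p = 0.0407).

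Besides Macf1, the lowest gene ends over wild type were those of Mapk8ip2, Akap6 and the pair with Cdc42bpb. Mapk8ip2, a scaffold of JNK kinases at synapses, held 31 and 26 HA and 105 and 68 wild-type reads (0.219-fold, log2 -2.19, SE 0.11, limma adjusted p = 0.00115). Akap6 held 34 and 39 HA and 57 and 77 wild-type reads (0.356-fold, limma adjusted p = 0.00953), and the end shared by A230087F16Rik and Cdc42bpb, a kinase that acts on myosin downstream of CDC42, held 32 and 49 HA and 56 and 68 wild-type reads (0.415-fold, limma adjusted p = 0.00453). Wild-type reads exceeded HA reads in both mice at each, and these 3 and Macf1 were the 4 that stayed lower with the pooled ratio. Milder values, such as Hpcal4 (0.637-fold), a neuronal calcium sensor, and Scn8a (0.658-fold), a sodium channel of axons, turned to log2 0.16 and 0.21 with the pooled ratio and did not pass.

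The same bases were read in HA, IgG and wild type of 1 mouse for 301 gene-end regions in mouse 1 and 187 in mouse 2. Summed over them, mouse 1 held 3.35 HA, 1.41 IgG and 2.74 wild-type reads per kb, and mouse 2 held 3.34, 3.41 and 1.85. Among regions with at least 20 reads, HA reads exceeded both controls in 131 of 174 (75.3%) in mouse 1, against 69% of all regions, and in 48 of 124 (38.7%) in mouse 2, against 29.7%. IgG reads exceeded HA reads in 10 of 174 (5.75%) and 69 of 124 (55.6%), against 5.66% and 59.6% of all regions. These reads are not scaled for depth, so the gap between the mice may hold the depth of their libraries, which was not tested.

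Gene ends differed in which control was the higher. At Macf1 the 2.50 kb region held 31.6 and 37.2 HA, 6.00 and 16.8 IgG and 104 wild-type reads per kb in mice 1 and 2. At Akap6 the values were 4.72 and 8.12 HA, 0.972 and 2.92 IgG, and 7.92 and 16 wild type. Wild type was highest and IgG lowest at both. At Kidins220 they were 3.27 and 4.44 HA, 2.63 and 8.19 IgG, and 1.43 and 2.00 wild type, with wild type lowest in both mice. At the C77080 and Yars end they were 41.9 and 64.7 HA, 0.875 and 2.80 IgG, and 1.62 and 1.73 wild type.

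**Figure D5:**
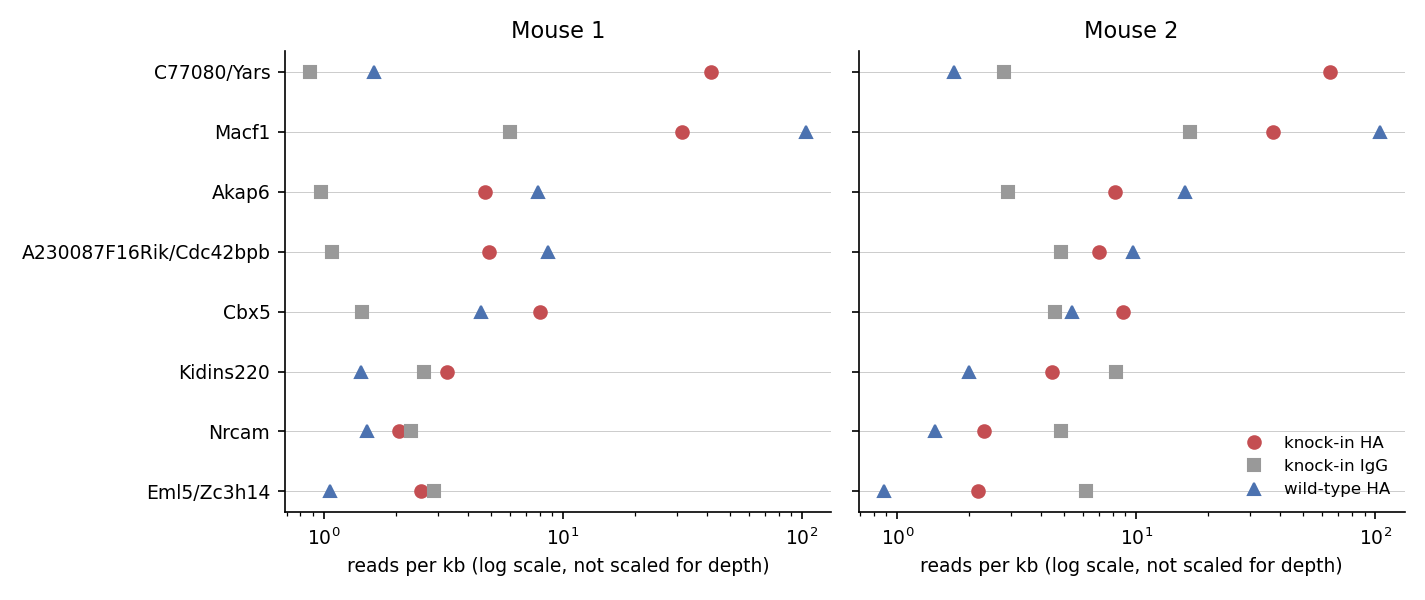
Reads per kb (log scale, not scaled for depth) over the same bases in the knock-in HA (red circles), knock-in IgG (grey squares) and wild-type HA (blue triangles) libraries for 8 gene ends in mouse 1 (left) and mouse 2 (right). HA stands far to the right of both controls at C77080 and Yars, wild type is highest at Macf1, and wild type is lowest at Kidins220.

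Some ends with many reads were found in 1 mouse only and have no replicate. Nhs, the gene of Nance-Horan syndrome, held 723 HA and 3 IgG reads over 16.6 kb in mouse 2 (218-fold, and 254-fold without the added 0.5, interval 86.7 to 1236). Snhg11, a long noncoding RNA of neurons, held 324 HA and 620 IgG reads there (0.552-fold, interval 0.481 to 0.632). Myh9, a nonmuscle myosin heavy chain, had 96 reads in the HA library of mouse 1, against 9 in IgG (3.62-fold, interval 1.92 to 8.56) and 1003 in wild type (0.0684-fold, interval 0.0546 to 0.0840). Its wild-type reads were the higher by far, and its IgG reads the lowest.

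Gene ends of 10 gene lists were looked up. For scale, 1180 genes of any type had a gene-end region in at least 1 list, where the annotation holds 21947 protein-coding genes. Whether a gene list held more or fewer than its share was not tested. Among 40 messenger RNAs known as FMRP targets, 7 had a gene-end region in at least 1 list. Of these, Sptbn1 and Macf1 were tested over IgG and both were higher, and Macf1 and Atp2b2 were tested over wild type and both were lower, Atp2b2, a calcium pump, at 0.629-fold and not with the pooled ratio. Of all matched regions 44.7% were higher over IgG and 17.7% lower over wild type, and over IgG Macf1 did not pass with the pooled ratio (adjusted p = 0.433 by limma). Of 34 genes of CYFIP1, the WAVE complex and actin, 6 had one, and the end that C77080 shares with Yars was higher over each control, as 1 of 1 tested over IgG and 1 of 2 over wild type, where its reads cannot be assigned to either gene. Brk1, a WAVE subunit, held 20 HA reads in both mice and 11 and 8 wild-type reads (1.27 and 1.40-fold). Arpc2, a subunit of the Arp2/3 complex, held 21 and 33 HA and 9 and 13 wild-type reads and did not pass. Actn1, an actin crosslinker, had 21 reads in HA of mouse 1, 14 in IgG and 116 in wild type.

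Of 26 NMDA receptor and postsynaptic scaffold genes, 3 had a gene-end region, and none in both mice. Dlgap3, a scaffold of the postsynaptic density, had 96 reads in HA of mouse 1, 30 in IgG (1.13-fold, interval 0.749 to 1.78) and 101 in wild type (0.676-fold, interval 0.506 to 0.903). Dlg2 held 68 HA and 77 wild-type reads and Arc, an immediate early gene, 23 and 28, both in mouse 1. Of 27 ion channels and pumps 6 had one, with 3 tested over wild type. Atp2b2 and Scn8a (0.658-fold) lay below the list median there. Neither stayed lower with the pooled ratio, under which Scn8a turned to log2 0.21. Kcna1, a potassium channel, held 66 and 108 HA and 41 and 63 wild-type reads and did not pass. Cpsf1, a polyadenylation factor whose end meets that of Adck5, was 1 of 2 genes of 3′ end processing among 21. It was at 0.497-fold over IgG, where it did not pass, and 0.472-fold over wild type. Few reads stood behind this, 11 and 10 in HA against 14 and 15 in wild type. Cpsf1 was not among the ends that stayed lower over wild type with the pooled ratio.

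In the remaining lists, 3 of 29 genes of translation control (10.3%) and 2 of 24 presynaptic genes (8.33%) had a gene-end region. So did 2 of 16 long noncoding RNAs (12.5%) and 5 of 93 ribosomal protein genes (5.38%). Of these, Rims2 over wild type was the 1 tested, and it did not pass. No replication-dependent histone gene of 70 had a region of any kind. Rims2, which organises synaptic vesicle release, held 13 and 16 HA, 5 and 18 IgG, and 10 and 9 wild-type reads. Cyfip1, Fmr1, Nhsl1, Nhsl2, Grin2b and Shank2 had no gene-end region in any list. Over IgG 3779 of 4191 regions lay on 5 chromosomes in mouse 1 and 1645 of 1920 on 2 in mouse 2. Over wild type 5319 of 5355 lay on 6 and 5069 of 5362 on 5. A gene without a region, histone genes included, may lie on a chromosome with few regions, which was not tested.

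The markers of hippocampal cell types were looked up in regions of every kind, gene ends included. Regions of any kind lay on 2, 0, 4 and 3 of 12 markers of pyramidal and granule neurons in the 4 lists. They lay on 2 of 7 astrocyte markers in each list. Genes of any type with a region numbered 2703, 1113, 3721 and 3260, where the annotation holds 21947 protein-coding genes. At gene ends, Prox1, a factor of granule cells, had 28 reads in HA and 5 in IgG of mouse 1, and Neurod6 had 21 in HA of mouse 1 and 16 in wild type. Of 7 astrocyte markers, Slc1a3, a glutamate transporter, held 37 HA reads in mouse 2, with 26 IgG and 31 wild-type reads. None of the markers of interneurons, oligodendrocytes, microglia, endothelium and blood or choroid plexus had a gene-end region, and the limit of few chromosomes holds here too. The lists hold regions called in precipitated RNA, so this does not check the tissue, and in bulk tissue fewer cells of a type and less RNA per cell cannot be told apart.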

How the data were processed

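Anti-HA and control IgG precipitates of hippocampus were sequenced single-end with 50 cycles, per the labels' protocols. The submitters' processing notes name TopHat and TopHat2 with GRCm38 and mm10. The region lists were written with rtracklayer 1.28.9 on mm10, per the file headers, and the sources used here do not give the region caller. Other values that the authors deposited per region are the unscaled reads of the HA and of the control library, the authors' adjusted p-value and empirical FDR, and a gene annotation. Reads outside regions are not in the lists, so sequencing depth is unknown.

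Read ratios had 0.5 added to both counts and were set relative to the median of regions with at least 20 reads. The count model planned for identical regions was replaced by limma 3.58.1 in R 4.3.3 on log2(reads + 0.5), because the reads stand inside an annotation column. Adjusted p-values are Benjamini-Hochberg over all regions of a fit. On simulated reads with 8-fold changes, limma recovered 100% of the changed regions over IgG and 98.6% over wild type in the identical regions, with 1.5 and 1.3 false calls a run among 91.5 and 95.9 regions. Those simulated libraries were scaled by median-of-ratios size factors, and their spread was fixed in advance. The reported fit used the list median instead, so the simulation does not check that scale. The IgG and HA libraries share a mouse number in the labels, and deviations of same-numbered libraries correlated at -0.04 over 92 regions. Gene ends, 3′ untranslated and coding bases and end sequences came from GENCODE M21, and microRNAs from RefSeq, which held 2 of 4 microRNA genes.

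The gene-end regions, gene lists, marker lists and tests were chosen with earlier results of these data known. Named genes were, for each control, the 8 with most reads in both mice and the 6 highest and 6 lowest mean log2 ratios with at least 20 reads in both mice, the 8 with most reads in all 4 lists, up to 3 per gene list, and a fixed set that included Cyfip1, Fmr1, Nhs and Arc. Named outside that rule, after their values were seen, were the other called regions, markers, list members and the ends of farthest reach. A called gene end is included in the counts and is otherwise not reported here.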

Additional observations from a re-analysis of the deposited data

How the results depend on the processing

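The number of gene-end regions fell to 184, 138, 295 and 296 with at least 20 reads, and over IgG in mouse 1 to 231 with the adjusted p under 0.05 of the authors' deposited table. By the empirical FDR of that table, under 10%, 8 of 396 gene-end regions passed in mouse 1 and 162 of 226 in mouse 2, and 262 and 255 over wild type. The median log2 ratio moved to -0.78 and -1.11 over IgG and to 0.79 and 0.94 over wild type relative to the pooled ratio, to -0.89 and -0.59 over IgG with at least 50 reads, and to -0.13 over IgG in mouse 1 with at least 10 reads. In place of 97 genes shared over IgG, the mice shared 57 regions by 50% overlap, 6 regions with identical coordinates and 56 genes with the authors' adjusted p in both mice. Over wild type, in place of 272 genes, they shared 165 regions by overlap and 12 with identical coordinates.

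Over IgG, identical gene-end regions called higher and lower were 1 and 4 with the trimmed mean and 1 and 4 with median-of-ratios size factors. Under these Sptbn1 turned to -0.22 and -0.18 and Macf1 to -2.05 and -2.01, scales under which the median of all 92 regions moved from 3.10 to 0.01 and 0.04. The replicate block kept the count at 3 higher and 0 lower, and regions matched by 50% overlap, themselves paired by mouse, gave 7 and 6, or 4 and 14 with the pooled ratio. Leaving out 1 library gave 2 to 3 higher and 0 to 0 lower. Over wild type, higher calls were 1 with the trimmed mean, 1 with size factors, 2 with the pooled ratio and 1 with no read minimum, where lower calls were 0; matched regions gave 14 and 14, or 85 and 4 with the pooled ratio, which turned Hpcal4 to 0.16 and Scn8a to 0.21. The cause of the other changes was not tested. No replicate block and no left-out library was run over wild type, which is 1 library, and the second count model planned was not run. Reads per region and the unknown depth limit what a single end can show.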
